A study of Mus musculus with 18 samples.

Results

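Bcl11b, Fezf2 and Tbr1 are transcription factor genes that set the identity of deep-layer neurons of the neocortex, and their relative transcript levels were followed along its rostrocaudal axis. They were selected by name, as every probe annotated with one of the 3 symbols. This gave 4 probes, 2 for Bcl11b and 1 each for Fezf2 and Tbr1, for 3 of the 15063 genes that the array names by a single symbol. The tissue was rostral, middle and caudal neocortex of MF1 mouse embryos, an outbred stock, at E13.5, with no treatment or genetic change named in the labels. Total RNA of 9 pools, 3 per region, was compared in pairs on 18 arrays with 2 dyes, and 6 arrays joined each pair of regions. Each pool was hybridised 4 times, 2 times per dye. The labels give 4 embryos as the source and do not tie pools to embryos, so p-values reflect only how these pools vary, and that variation may be technical.

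Excitatory neurons of the neocortex are born in order, deep layers before upper layers, and at mid-gestation the cortical wall holds progenitors together with the first deep-layer and subplate neurons. In the mouse, Fezf2 encodes a zinc finger repressor of early progenitors and of layer 5 neurons that directs axons to targets below the cortex. Bcl11b, also called Ctip2, encodes a zinc finger protein that acts downstream of Fezf2 in those subcerebral neurons and is also abundant in the striatum. Tbr1 encodes a T-box factor of newly made cortical neurons, of the subplate and of layer 6, where it promotes corticothalamic identity and restrains Fezf2 and Bcl11b.

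The regulatory sequence next to each gene is shown because the results turn on how the 3 genes compare with each other. Each line gives the 250 bases before the annotated start from RefSeq (GRCm38.p6), 5′ to 3′ on the strand of the gene. The Bcl11b window lies at chr12:108003415-108003664 on the minus strand, the Fezf2 window at chr14:12345866-12346115 on the minus strand and the Tbr1 window at chr2:61804203-61804452 on the plus strand. Capitals mark matches to TAATTA, the core bound by many homeodomain proteins.
Bcl11b: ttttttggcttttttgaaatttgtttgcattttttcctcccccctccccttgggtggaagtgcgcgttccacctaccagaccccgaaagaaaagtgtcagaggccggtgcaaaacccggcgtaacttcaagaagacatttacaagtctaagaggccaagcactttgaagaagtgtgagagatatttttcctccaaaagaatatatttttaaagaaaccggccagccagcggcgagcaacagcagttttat
Fezf2: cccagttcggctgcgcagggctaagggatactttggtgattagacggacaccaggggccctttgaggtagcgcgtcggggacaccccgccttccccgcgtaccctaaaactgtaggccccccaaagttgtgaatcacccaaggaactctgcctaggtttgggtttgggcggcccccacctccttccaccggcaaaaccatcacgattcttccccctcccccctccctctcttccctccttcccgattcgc
Tbr1: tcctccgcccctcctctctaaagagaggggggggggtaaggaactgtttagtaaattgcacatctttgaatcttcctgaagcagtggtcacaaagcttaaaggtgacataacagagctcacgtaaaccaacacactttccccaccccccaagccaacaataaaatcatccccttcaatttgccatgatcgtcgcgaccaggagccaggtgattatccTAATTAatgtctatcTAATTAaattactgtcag
The windows of Bcl11b and Tbr1 had GC contents of 44.8% and 45.2%, and that of Fezf2 had 61.2%, against a median of 52.4% over all promoters of the table. Of 5 motifs searched on both strands, TAATTA matched in the Tbr1 window at 2 places, whose first bases lie 33 and 18 bases before the start. It reads the same on both strands and is present in 4.84% of the 32851 promoters. The other motifs were TCACACCT, a T-box element (1.12% of promoters), AGGTCA, a nuclear receptor half-site (14%), CCAAT (33.8%) and TATAAA (12.4%). These 4 had 0 matches in the Tbr1 window, so the TAATTA matches overlap no other motif, and 0 of the 5 motifs had a match in the Bcl11b and Fezf2 windows. A match is a string of letters and not a bound site.

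The arrays give ratios between regions and no level, so whether deep-layer or other cell type markers were present in a pool was not measured. A pool value is the log2 level of a probe in that pool relative to the mean of the 9 pools, and positive differences mean more transcript in the region named first. The direction of the ratio is not stated. The reading as Cy5 over Cy3 is likely, because Nr2f1, a nuclear receptor gene known to be caudal, was lower in rostral than in caudal pools by its 2 probes (-1.02 ± 0.07 and -1.02 ± 0.17, log2 ± SE, limma adjusted p = 0.0138 and 0.150). The other reading would turn every sign below. Fezf2, Tbr1 and both Bcl11b probes had a value on all 18 arrays and were tested with 18525 features in all, a feature being 1 probe. The number of arrays and pools limits the precision. In bulk tissue, fewer cells that express a gene and less RNA per cell cannot be told apart.

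The ends of the axis were compared first, to ask how each gene ran between rostral and caudal neocortex. Bcl11b lay above caudal in every rostral pool by both probes, Fezf2 lay below caudal in every rostral pool, and Tbr1 pools of the ends overlapped. Of the 4 probes, 0 passed limma's test at an adjusted p of 0.05, the threshold that 12 features (0.0648%) passed for rostral minus caudal. At an unadjusted p under 0.05 there were 3 of the 4 probes, 2 of them of the same gene, against 7.9% of all features. The same 3 probes had rostral and caudal pools that did not overlap, against 12.1% of all features. The genes were chosen with earlier results of these data known, so such shares, here and below, are a description and not a test.

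Bcl11b was measured by 2 probes whose sizes differed. Its probe 1 read 0.099, 0.145 and 0.044 in rostral pools 1 to 3, -0.0091, 0.016 and 0.045 in middle pools, and -0.117, -0.167 and -0.057 in caudal pools 1 to 3. The rostral pools were all above 0 and the caudal pools all below it. The rostral minus caudal difference of probe 1 was 0.21 ± 0.05 (95% interval 0.087 to 0.332, 1.16-fold, limma adjusted p = 0.283). Probe 2 read 0.153, 0.334 and 0.255 in rostral pools, -0.160, -0.052 and 0.098 in middle pools, and -0.186, -0.264 and -0.180 in caudal pools. Again no rostral pool reached down to a caudal pool, and the gap was wider than by probe 1. Its difference was 0.46 ± 0.08 (interval 0.267 to 0.648, 1.37-fold, limma adjusted p = 0.156). Probe 2 exceeded probe 1 by 0.05 to 0.21 in rostral pools and lay under it by 0.07 to 0.12 in caudal pools. That gave a difference between the probes of 0.25 (exact two-sided permutation p = 0.1, the smallest that 3 pools against 3 can give), a comparison added after the values were seen. The probe sequences were not used here, so which transcripts each probe detects is not known.

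At the ends of the axis, Fezf2 pool values had signs opposite to those of Bcl11b. Fezf2 read -0.147, -0.161 and -0.201 in rostral pools 1 to 3, 0.056, 0.023 and 0.095 in middle pools, and 0.037, 0.133 and 0.165 in caudal pools 1 to 3. All rostral pools were below 0, and all middle and caudal pools were above 0. The rostral minus caudal difference was -0.28 ± 0.05 (interval -0.405 to -0.158), so that Fezf2 was 1.22-fold lower in rostral pools, with a limma adjusted p of 0.167. Of all 18525 features, 0.556% had an unadjusted p as low for this comparison. For Bcl11b the same share was 1.68% by probe 1 and 0.416% by probe 2. A low p reflects the spread of the pools as well as the size of the difference. The SD between pools was 0.047 for Fezf2, 0.046 for Bcl11b probe 1 and 0.095 for probe 2. Of all features, 6.62%, 6.36% and 31.9% had a lower SD, in the same order.

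Tbr1 read 0.039, 0.134 and -0.0037 in rostral pools, -0.145, -0.0091 and 0.070 in middle pools, and 0.029, -0.173 and 0.059 in caudal pools. Rostral pool 3 lay below caudal pools 1 and 3, so the ends overlapped. Its difference was 0.09 ± 0.09 (interval -0.119 to 0.289, limma adjusted p = 0.914). The interval leaves room for a Tbr1 difference as large as that of Bcl11b probe 1 and for none.

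**Figure D1:**
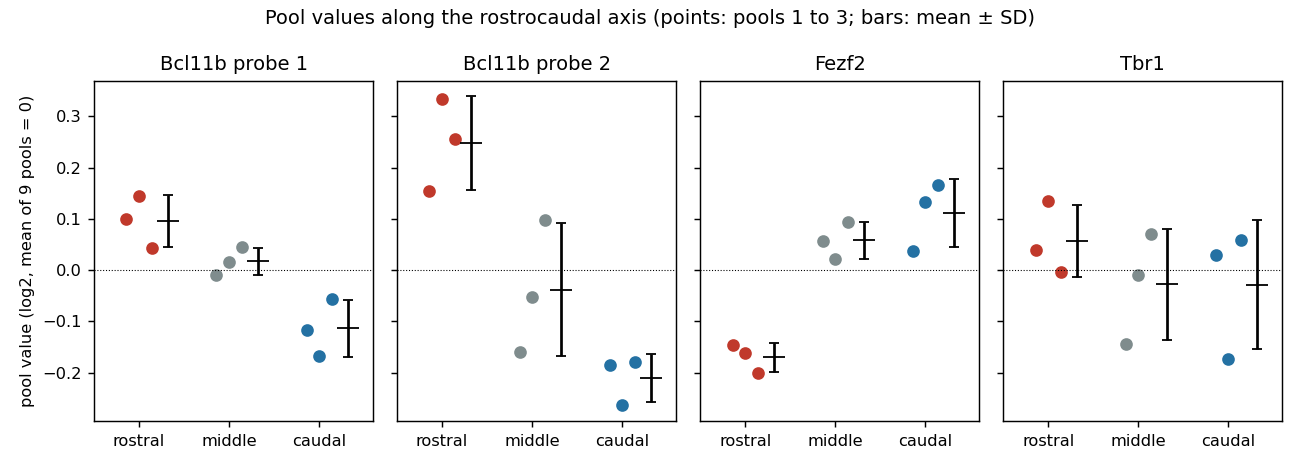
Pool values (log2, mean of the 9 pools at 0) of Bcl11b probe 1, Bcl11b probe 2, Fezf2 and Tbr1 in rostral, middle and caudal neocortex. Points are pools 1 to 3 of a region and bars are the mean ± SD (n = 3). Bcl11b points are positive in rostral and negative in caudal pools, Fezf2 points are negative in rostral and positive in caudal pools, and Tbr1 points overlap.

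Whether the genes differed from each other was tested on the difference of their pool values in rostral and caudal pools, with 3 pairs of genes compared and probe 1 standing for Bcl11b. Bcl11b minus Fezf2 was between 0.245 and 0.307 in rostral pools and between -0.300 and -0.154 in caudal pools, a difference of 0.49 between the ends. Fezf2 minus Tbr1 was between -0.295 and -0.186 in rostral pools and between 0.009 and 0.306 in caudal pools, a difference of -0.37. Bcl11b minus Tbr1 was between 0.011 and 0.060 in rostral pools and between -0.145 and 0.006 in caudal pools, a difference of 0.12. The rostral minus caudal difference of Bcl11b probe 2 was larger than that of probe 1 by 0.25. With probe 2 both Bcl11b differences would be larger by that much. In each pair the ends did not overlap. Each gave an exact two-sided permutation p of 0.1, which is the smallest that 3 pools against 3 allow, and 0.1 after Benjamini-Hochberg adjustment over the 3 pairs. This test cannot go below 0.05 with 3 pools against 3. The 3 pairs are linked, since each difference follows from the others, so they are not separate evidence. Of all single features, 12.1% had rostral and caudal pools that did not overlap, and the share over pairs of genes was not computed.

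The middle pools place the steps along the axis, in a way that depends on the centring of arrays. In region means, Fezf2 was -0.17 ± 0.03 in rostral, 0.06 ± 0.04 in middle and 0.11 ± 0.07 in caudal neocortex (SD, n = 3 pools each). Its middle mean lay nearer the caudal one with arrays centred on their medians, and nearer the rostral one without that centring, where rostral minus middle was -0.13 and middle minus caudal -0.23. Bcl11b probe 1 was 0.10 ± 0.05 in rostral, 0.02 ± 0.03 in middle and -0.11 ± 0.06 in caudal neocortex. Probe 2 was 0.25 ± 0.09, -0.04 ± 0.13 and -0.21 ± 0.05 in the same order. With arrays centred, the middle mean of Bcl11b thus lay between those of the ends by both probes. Middle pool 3 was then the highest of the middle pools by both. Without centring, middle minus caudal was -0.044 by probe 1 and -0.0024 by probe 2, so the middle mean was not above the caudal one. Tbr1 was 0.06 ± 0.07, -0.03 ± 0.11 and -0.03 ± 0.13, with overlap between all neighbours.

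Against the middle, Fezf2 rostral pools were again below, with -0.147 in the highest of them and 0.023 in the lowest middle pool. The rostral minus middle difference of Fezf2 was -0.23 ± 0.05 (interval -0.351 to -0.104, limma adjusted p = 0.597), and -0.13 ± 0.08 without centring, where its unadjusted p was 0.155. Bcl11b probe 2 differed by 0.29 ± 0.08 (interval 0.095 to 0.476, limma adjusted p = 0.761), and its rostral and middle pools did not overlap. Bcl11b probe 1 differed by 0.08 ± 0.05 (interval -0.044 to 0.202, limma adjusted p = 0.999), and rostral pool 3, at 0.044, lay just below middle pool 3, at 0.045. Probe 1 moved to 0.044 without the array of rostral pool 2 against middle pool 1, to 0.045 without rostral pool 2, to 0.12 with the Gapdh covariate described below and to 0.18 without centring. For Tbr1 the difference was 0.08 ± 0.09 (interval -0.120 to 0.289). Of the 4 probes 0 passed after adjustment, as did 0 of all 18525 features (0%). At an unadjusted p under 0.05 there were 2 of the 4 probes (all features 5.25%), and 2 of the 4 had pools without overlap (all features 12.8%). Without centring 1 of the 4, Bcl11b probe 2, had an unadjusted p under 0.05.

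Middle minus caudal gave differences of 0.13 ± 0.05 for Bcl11b probe 1 (interval 0.008 to 0.253, limma adjusted p = 0.986) and 0.17 ± 0.08 for probe 2 (interval -0.018 to 0.362, limma adjusted p = 0.995), signs that turned to -0.044 and -0.0024 where arrays were not centred on their medians. Without that centring the median of all features itself moved by -0.17 in this comparison, by 0.10 in rostral minus middle and by -0.069 in rostral minus caudal. The member differences moved with it by about as much, so their values relative to the median of all features stayed close to those given. Rostral minus caudal was then 0.14 for Bcl11b probe 1 (unadjusted p = 0.169), 0.38 for probe 2, -0.35 for Fezf2 and 0.012 for Tbr1. For Fezf2 the difference was -0.05 ± 0.05 (interval -0.178 to 0.069, limma adjusted p = 0.995), and its middle pools overlapped the caudal ones. Without centring it was -0.23 ± 0.08 (unadjusted p = 0.0225), outside that interval. Tbr1 was 0.0005 ± 0.09 apart (interval -0.204 to 0.205), with a sign that depended on the processing. Of the 4 probes 0 passed after adjustment (0% of all features), 1 had an unadjusted p under 0.05 (all features 4.86%), and the 2 Bcl11b probes had pools without overlap (all features 10.5%). The 3 comparisons share pools, so they are not separate evidence. When asked for any difference among the 3 regions, limma's F test gave adjusted p-values of 0.511 and 0.295 for the Bcl11b probes, 0.295 for Fezf2 and 0.990 for Tbr1. By that test 2 features in all passed (0.0108%), and 3 of the 4 probes had an unadjusted p under 0.05, against 6.71% of all features.

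The single arrays, each centred on its median, show how often each ratio had its sign. The 6 arrays of a pair of regions share pools, so they are not independent samples. The share of all features that keep their sign on 6 of 6 arrays was not computed. On the 6 arrays that carried a rostral against a caudal pool, Bcl11b probe 1 was above 0 on 6 of 6, at 0.225, 0.319, 0.108, 0.10, 0.276 and 0.156. Probe 2 was above 0 on 6 of 6, at 0.479, 0.324, 0.563, 0.287, 0.567 and 0.571. The lowest of the probe 2 ratios came from rostral pool 1 against caudal pool 3, which also gave the lowest ratio of probe 1. Fezf2 was below 0 on 6 of 6 arrays, at -0.220, -0.273, -0.408, -0.323, -0.361 and -0.170. Its sign was the same with the rostral pool in Cy5, where it averaged -0.30, and with the rostral pool in Cy3, where it averaged -0.28 (3 arrays each). Tbr1 gave -0.206, 0.260, 0.020, 0.057, 0.059 and 0.122, above 0 on 5 of 6 arrays.

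Tbr1 ratios moved with the dye. Its dye coefficient, the part of the Cy5 over Cy3 ratio that all arrays share, was -0.14, against 0.0012 and -0.043 for the Bcl11b probes and -0.0015 for Fezf2. Of all features, 14.5% had a dye coefficient below that of Tbr1. Rostral minus caudal averaged -0.03 with the rostral pool in Cy5 and 0.13 with it in Cy3. Middle minus caudal averaged -0.19 with the middle pool in Cy5 and 0.26 with it in Cy3. The fit takes the dye out, and both dyes were used equally for each pool. What remained between arrays was an SD of 0.20 for Tbr1, against 0.096 and 0.11 for the Bcl11b probes and 0.071 for Fezf2. Of all features, 43.2% had an SD between arrays below that of Tbr1 and 6.76% one below that of Fezf2.

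Against the middle, Bcl11b probe 1 was above 0 on 6 of 6 rostral arrays (0.009 to 0.311), probe 2 on 6 of 6 (0.034 to 0.541) and Tbr1 on 4 of 6 (-0.356 to 0.374), while Fezf2 was below 0 on 6 of 6 (-0.321 to -0.102). On the 6 arrays of middle against caudal, Bcl11b probe 1 was above 0 on 6 of 6 (0.090 to 0.231). Probe 2 was above 0 on 5 of 6 (-0.026 to 0.294) and Tbr1 on 3 of 6 (-0.467 to 0.353). Fezf2 was below 0 on 5 of 6 (-0.097 to 0.080). Signs were not counted without centring, where the fitted middle minus caudal difference was -0.044 for Bcl11b probe 1 and -0.0024 for probe 2. The 12 arrays that did not set rostral directly against caudal give the rostral minus caudal difference by way of the middle. By this route it was 0.23 for Bcl11b probe 1, 0.44 for probe 2, -0.26 for Fezf2 and 0.15 for Tbr1. The 6 direct arrays gave 0.20, 0.47, -0.29 and 0.05 in the same order.

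**Figure D2:**
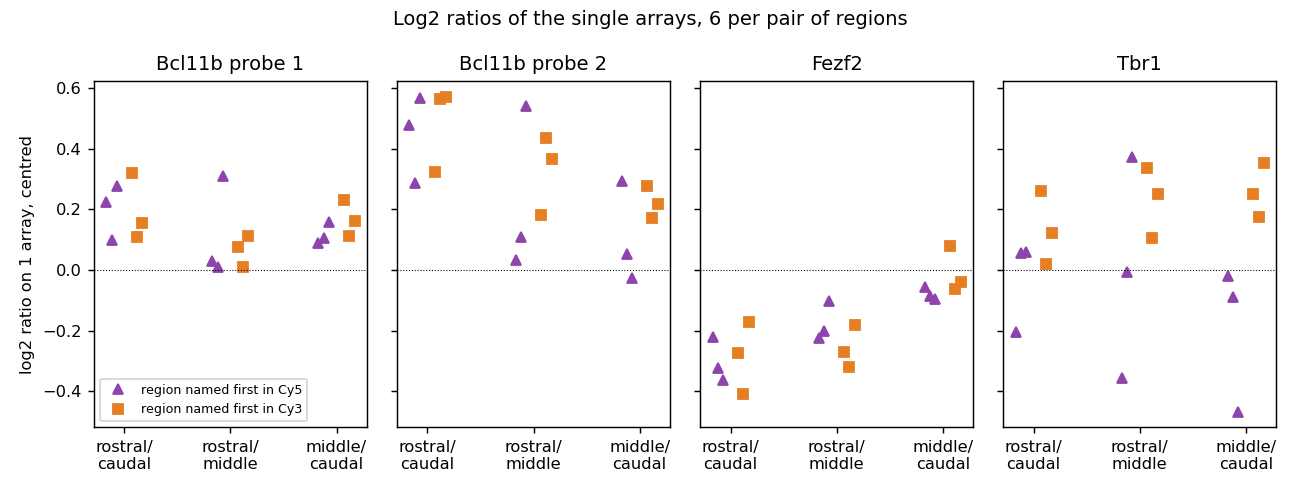
Log2 ratios of single arrays, centred on the array median and turned so that the region named first is on top, for Bcl11b probe 1, Bcl11b probe 2, Fezf2 and Tbr1. Each point is 1 array, 6 per pair of regions, with triangles where the region named first was in Cy5 and squares where it was in Cy3. Rostral/caudal ratios of both Bcl11b probes lie above 0 and those of Fezf2 below 0 on 6 of 6 arrays, and Tbr1 squares tend to lie above its triangles.

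Genes of subcerebral projection neurons, the class that Fezf2 and Bcl11b specify, were taken as a list of 16, of which 15 were tested. In rostral minus caudal 1 of the 15 passed, 0 passed in the other direction, 4 were above 0 and 11 below, and the median was -0.045, against 0.0016 for all features. The gene that passed was Etv1, an ETS factor gene of layer 5 neurons and a target of FGF signalling, at 0.80 ± 0.07 (limma adjusted p = 0.0272). Crym, a thyroid hormone binding protein gene, was at -0.44 ± 0.07 (limma adjusted p = 0.150), and Ntng1, a netrin G gene, at -0.23 ± 0.09 (limma adjusted p = 0.606). Both had an unadjusted p under 0.05 and were named after their values were seen. The list medians were -0.061 for rostral minus middle and -0.0054 for middle minus caudal, with 0 of the 15 passing in either.

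Corticothalamic and subplate genes, the classes in which Tbr1 acts, numbered 14 with 11 tested. Of these 0 passed in rostral minus caudal, 1 had an unadjusted p under 0.05 above 0 and 1 below, and the median was 0.044. Foxp2, a forkhead gene of layer 6, was at 0.41 ± 0.08 (limma adjusted p = 0.173). Nr4a2, a nuclear receptor gene of the subplate, was at -0.22 ± 0.05 (limma adjusted p = 0.283), and Tle4, a corepressor gene of corticothalamic neurons, at -0.17 ± 0.08 (limma adjusted p = 0.718). The other Tle4 probe gave -0.25. The signs within this list were thus mixed, with 6 above 0 and 5 below.

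Among 10 tested of 14 callosal and upper-layer genes, 0 passed, 1 had an unadjusted p under 0.05, 6 were above 0 and 4 below, and the median was 0.017. Lmo4, a LIM-only gene with a known areal pattern, was at -0.41 ± 0.08 (limma adjusted p = 0.193), Pou3f1 at -0.076 ± 0.045 and Mef2c at 0.12 ± 0.09. Of 16 tested general neuron genes among 17 listed, 0 passed, 1 had an unadjusted p under 0.05 above 0 and 3 below, and the median was -0.071. Ina, which encodes a neurofilament protein, was at -0.25 ± 0.05 (limma adjusted p = 0.188). Neurod6, a bHLH gene of cortical neurons, was at 0.19 ± 0.06 and Neurod1, a related gene of newly made neurons, at -0.22 ± 0.07. Of the 16 neuron genes, 6 were above 0, the side of Bcl11b, and 10 below, the side of Fezf2. The part of neuron number in the member values was not tested.

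Of 19 paralogues, regulators and cofactors of the 3 proteins, 18 were tested and 0 passed. Their median was -0.015, and 1 gene had an unadjusted p under 0.05. Mta2, a subunit of the NuRD repressor complex with which Bcl11b protein associates, was at -0.23 ± 0.08 (limma adjusted p = 0.535), Rbbp4, a histone-binding subunit of the same complex, at -0.14 ± 0.09, and Ctbp2, a corepressor gene, at 0.11 ± 0.08. The closest relatives were named after their values were seen. Bcl11a, the paralogue of Bcl11b, was at -0.039 ± 0.063 (limma adjusted p = 0.953), while its other probe gave -0.22. Fezf1, the paralogue of Fezf2, was at 0.22 ± 0.29, and Sox4 and Sox11, which promote Fezf2 and Tbr1 expression in the mouse, were at 0.40 ± 0.30 and 0.032 ± 0.053. The other 2 Sox11 probes gave 0.077 and 0.14.

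Intermediate progenitors, which make cortical neurons, were represented by 9 genes, all tested, of which 0 passed. Their median was 0.078, with an unadjusted p under 0.05 for 2 genes above 0 and 2 below. Insm1 was at 0.29 ± 0.07, Btg2, an antiproliferative gene of neurogenic divisions, at 0.23 ± 0.07 and Gadd45g at -0.24 ± 0.07. Of 15 radial glia genes, all tested, 1 passed, and that gene was below 0, while 9 were above 0 and 6 below, with an unadjusted p under 0.05 for 2 above and 3 below. The gene that passed was Vim, the intermediate filament gene of these progenitors, at -0.51 ± 0.05 (limma adjusted p = 0.0389), and the list median was 0.0040. Slc1a3, a glutamate transporter gene of the same cells named after its value was seen, was at 0.32 ± 0.05 (limma adjusted p = 0.156). Its other 2 probes gave 0.32 and 0.22. Of 8 tested among 10 Cajal-Retzius genes 0 passed. Their median was -0.017, 3 were above 0 and 5 below, and 1 gene had an unadjusted p under 0.05. Reln, the secreted signal of these cells, was at -0.36 ± 0.08 by the probe that stands for it and at -0.035 by its other probe, Cxcr4 at -0.18 ± 0.08 and Ebf2 at -0.090 ± 0.048.

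Other tissues that a dissected piece could hold were read from 4 lists, 0 of whose genes passed. Bcl11b is strong in the striatum, and of 15 tested of 20 striatal and ventral telencephalic genes 6 were above 0 and 9 below in rostral minus caudal, with a median of -0.016. Gsx2, a homeobox gene of the progenitors that make the striatum, was at -0.53 ± 0.12 (limma adjusted p = 0.225), Dlx5 at -0.23 ± 0.14 and Lhx8 at -0.10 ± 0.08. The list median per pool was between -0.089 and 0.006 in rostral pools, between -0.010 and 0.070 in middle pools and between -0.049 and 0.090 in caudal pools. Of the 15 genes 1, Gsx2, had an unadjusted p under 0.05, on the side opposite to Bcl11b. The part of striatal tissue in the Bcl11b difference was not tested.

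In rostral minus caudal, meningeal and blood genes lay mostly on the side of Fezf2. Of 9 tested meningeal genes among 10 listed 8 were below 0, with a median of -0.15 in rostral minus caudal and an unadjusted p under 0.05 for 4, each below 0. Ptgds was at -0.66 ± 0.13, Dcn at -0.39 ± 0.09 and Cxcl12 at -0.27 ± 0.07. Of 5 tested red blood cell genes among 6 listed 4 were below 0, with a median of -0.32 and an unadjusted p under 0.05 for 2, both below 0. Alas2 was at -0.32 ± 0.07, and the embryonic globin genes Hbb-y and Hbb-bh1 at -0.33 ± 0.11 and -0.34 ± 0.17. Their list median was between -0.416 and -0.012 in rostral pools, between 0.032 and 0.146 in middle pools and between -0.089 and 0.178 in caudal pools. An unadjusted p under 0.05 for rostral minus caudal was reached by 7.9% of all features. The meningeal medians were -0.040 in rostral minus middle and -0.039 in middle minus caudal, and the blood medians -0.25 and -0.0033. Fezf2 was at -0.23 and -0.054 in the same 2 comparisons. The part of meninges and blood in the Fezf2 difference was not tested. Of 4 tested diencephalic genes among 6 listed 3 were above 0, the side of Bcl11b, and 0 had an unadjusted p under 0.05. Their median was 0.27, with Gbx2 at 0.56 ± 0.58, Foxb1 at 0.39 ± 0.45 and Lhx9 at -0.039 ± 0.053. The part of diencephalic tissue in the Bcl11b difference was not tested.

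Gapdh control spots, which were not among the features tested, also varied between pools. They read between -0.147 and -0.041 in rostral pools, between 0.072 and 0.089 in middle pools and between -0.142 and 0.140 in caudal pools. With the Gapdh value of the pool as a covariate, rostral minus caudal was 0.23 for Bcl11b probe 1, 0.46 for probe 2, -0.24 for Fezf2 and 0.10 for Tbr1.

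**Figure D3:**
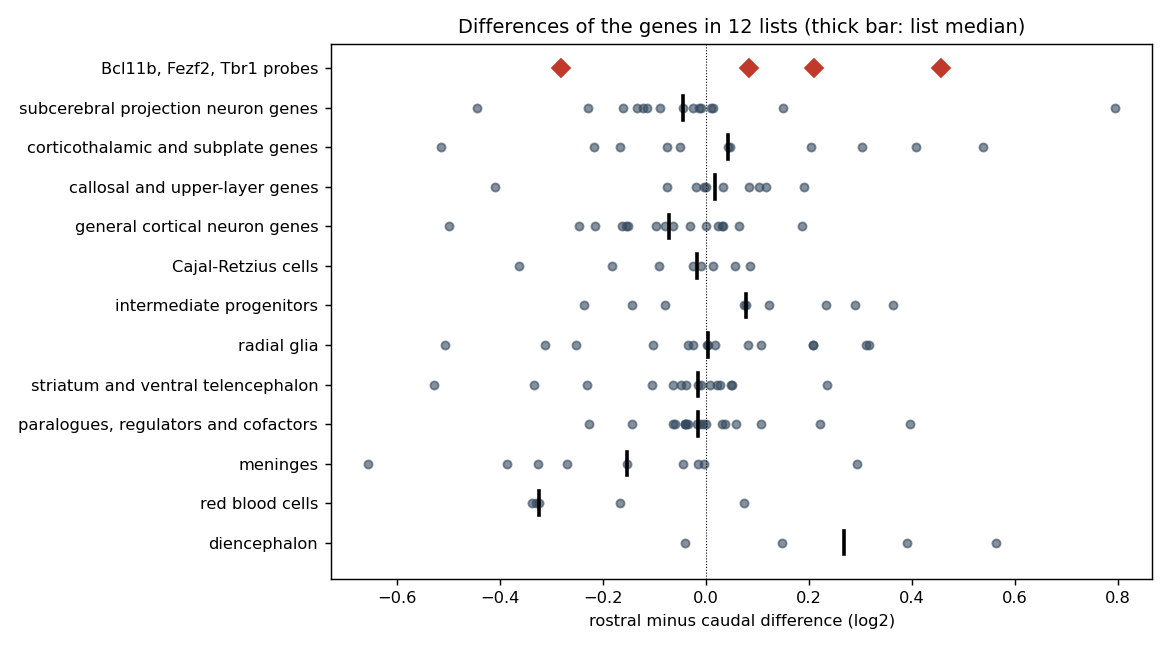
Rostral minus caudal differences (log2) of the 4 probes of Bcl11b, Fezf2 and Tbr1 (diamonds) and of the tested genes of 12 lists (points), with a thick bar at each list's median. The diamonds spread on both sides of 0, list medians of neuron and progenitor classes lie between -0.071 and 0.078, the meninges and red blood cell medians lie at -0.15 and -0.32, and the diencephalon median lies at 0.27.

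Genes whose 9 pool values were most like those of each member were ranked by Pearson r over 13378 other genes, as a description, since all share the same arrays. For Bcl11b probe 1 these were Sfrp1, which encodes a secreted WNT antagonist, at r = 0.968, Decr1, a fatty acid oxidation enzyme gene, at 0.968, Pbk, a mitotic kinase gene, at 0.955, Atp5pb, an ATP synthase subunit gene, at 0.955, and Tagln2, an actin-binding protein gene, at 0.954. Sfrp1 differed by 0.94 ± 0.13 in rostral minus caudal (limma adjusted p = 0.0619), which is more than the 0.21 of Bcl11b probe 1, and the other 4 by 0.26 to 0.53. A correlation over 0.9 was reached by 48 genes, or 0.359% of those searched.

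For Fezf2 the nearest genes were Clta, a clathrin light chain gene, at r = 0.990, Fshb, a pituitary hormone subunit gene, at 0.977, Nnat, the imprinted neuronatin gene, at 0.970, Fth-ps3 at 0.969 and Emc10, which encodes a subunit of the endoplasmic reticulum membrane complex, at 0.969. Fth-ps3 is a ferritin pseudogene whose probe may also detect its near-identical parent. Their rostral minus caudal differences were between -0.37 and -0.12, that of Clta being -0.31 ± 0.05 (limma adjusted p = 0.152). A correlation over 0.9 was reached by 101 genes, or 0.755%.

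For Tbr1 the nearest genes were 4931402G19Rik at r = 0.947, Mrps10, a mitochondrial ribosomal protein gene, at 0.937, Lrmp at 0.933, Klhl22 at 0.932 and Rbpjl, a relative of the Notch effector gene Rbpj, at 0.924. Mrps10 differed by 0.80 ± 0.63 in rostral minus caudal and Lrmp by 0.046 ± 0.062. A correlation over 0.9 was reached by 16 genes, or 0.12%.

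The rostral minus caudal signs of all 4 probes held under every alternative run for them. The alternatives share arrays and pools, so they are not separate evidence. Tbr1 came close to 0, at 0.012 without centring (limma unadjusted p = 0.924). Leaving out 1 pool at a time gave 0.17 to 0.25 for Bcl11b probe 1, 0.41 to 0.51 for probe 2 and -0.32 to -0.25 for Fezf2. Tbr1 was between 0.017, without caudal pool 2, and 0.13. Leaving out 1 array at a time gave 0.19 to 0.23 for Bcl11b probe 1, 0.44 to 0.49 for probe 2, -0.30 to -0.26 for Fezf2 and 0.037 to 0.13 for Tbr1.

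**Figure D4:**
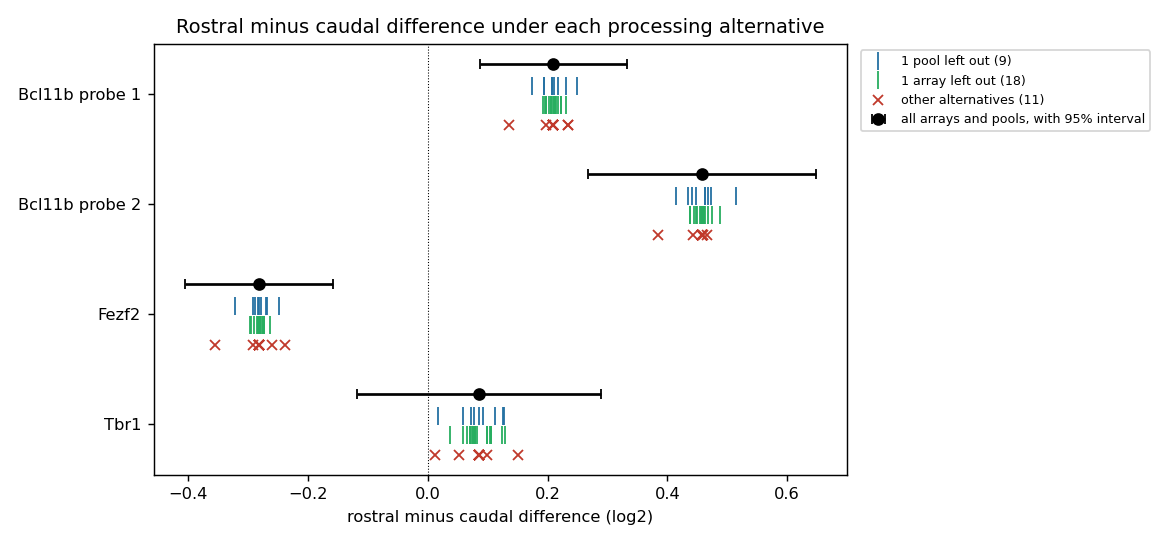
Rostral minus caudal differences (log2) of Bcl11b probe 1, Bcl11b probe 2, Fezf2 and Tbr1. Black points are the values over all arrays with 95% intervals, ticks leave out 1 pool (9) or 1 array (18), and crosses are the other 11 alternatives. Both Bcl11b probes stay above 0, at 0.14 to 0.51, and Fezf2 stays below 0, at -0.35 to -0.24, while the Tbr1 interval includes 0.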

How the data were processed

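The authors deposited 1 log2 ratio per probe and array (21998 probes, 18 arrays). How they were scanned, background-corrected, filtered and normalized is not stated (not given in the sources used here). The base was read from the values. Gapdh control spots (232) were left out of the tests, and ratios at the ceiling of 16.61 (1477) were set to missing. Arrays were centred on their medians (-0.09 to 0.61). A feature needed values on at least 12 arrays and 2 per pool, and an array held 18085 to 20693 values. Least squares with a dye term gave 1 value per pool, and limma 3.58.1 (lmFit and eBayes, R 4.3.3) compared the 9 pool values by region, with Benjamini-Hochberg adjustment over 18525 features (6 residual and 1.26 prior degrees of freedom). Pools were the samples. Pairs of genes were compared by exact permutation (SciPy 1.17.1). Tests were two-sided.

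The members, lists and tests were chosen with earlier results of these data known. The text names every member probe and, per list, genes that pass in any comparison or otherwise the 3 with the lowest unadjusted p for rostral minus caudal. It also names the 5 genes nearest to each member by Pearson correlation over pools, and Nr2f1. The feature with values on most arrays stands for a gene (ties go to the lowest ID). Gene names come from the platform annotation, which names 16632 probes by 1 symbol and 139 by several, while 4995 are unnamed here. On simulated data for rostral minus caudal (18525 features) the fit called 20% of features changed by 0.5 and 49% of those changed by 1 (log2), with 3 false calls. The changed features were drawn at random, 100 per size. These rates are not specific to the member probes, whose SD between pools was below the median of 0.15. Alternatives were other centring, filters and handling of ceiling values, arrays as samples, subsets of arrays, pools or arrays left out, a replicate block and, added after seeing the data, the 12 indirect arrays and a Gapdh covariate. Promoter sequences and their coordinates are from RefSeq (GRCm38.p6), and no other genome sequence was used.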

Additional observations from a re-analysis of the deposited data

Results flagged for a closer look

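Among 12 sets of 6 direct arrays (4 probes, 3 pairs of regions), 2 held a ratio far from the other 5, and chance gives about 1 in 20 sets. Bcl11b probe 1 in rostral minus middle read 0.311 on the array of rostral pool 2 against middle pool 1, while the other 5 arrays lay between 0.009 and 0.112. Without that array the fitted difference was 0.044, against 0.079 with it. The same array gave the highest rostral minus middle ratio of Bcl11b probe 2 (0.541) and of Tbr1 (0.374), and the least negative one of Fezf2 (-0.102). Fezf2 in middle minus caudal read 0.080 on the array of middle pool 3 against caudal pool 1, while the other 5 lay between -0.097 and -0.038.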

How the results depend on the processing

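With the replicate block, rostral minus caudal and any-region counts were 0 and 0 (12 and 2 without it), and the member differences did not move. Its adjusted p-values were 0.710 and 0.520 for the Bcl11b probes, 0.547 for Fezf2 and 0.999 for Tbr1 in rostral minus caudal. The labels do not say that a number marks a shared embryo, and all 9 same-number pairs correlated negatively (-0.057 to -0.43). Pools of the same number never shared an array, so this correlation is tied to the array design and leaves a pairing untested. The 12 features of rostral minus caudal became 0 without centring, 46 over features with values on all arrays, 7 over all features that could be estimated, 0 from the 6 direct arrays, 0 with the Gapdh covariate, 0 to 4 with 1 pool left out (4 without middle pool 1) and 1325 with arrays as samples. For any region the 2 features became 20 over features on all arrays, and 0 without centring, with ceiling values kept, over all estimable features and with any pool left out. With arrays as samples, 703 features passed in rostral minus middle and 501 in middle minus caudal. So did 5 member results, Bcl11b probe 1 (0.21) and probe 2 (0.46) and Fezf2 (-0.28) in rostral minus caudal, and Bcl11b probe 2 (0.29) and Fezf2 (-0.23) in rostral minus middle. Arrays share pools and are not independent samples. Middle minus caudal reversed without centring for Bcl11b probe 1 (-0.044), probe 2 (-0.0024) and Tbr1 (-0.17). For Tbr1 it also reversed with the 12 indirect arrays (-0.066) and the Gapdh covariate (-0.0097), and ranged over -0.076 to 0.055 with 1 pool left out and -0.041 to 0.028 with 1 array left out. The causes were not tested. The number of arrays and pools limits the precision.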
